A study of Danio rerio with 45 samples.

Results

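Aminoacyl-tRNA synthetases are the enzymes that join each amino acid to its tRNA, so every step of protein synthesis draws on them. One set works in the cytosol, a second set encoded in the nucleus works inside mitochondria, and several cytosolic members sit together in a multi-synthetase complex. In zebrafish the first cell cycles run on transcripts that the mother laid down in the egg, and the embryo's own genome takes over during the blastula stages. The synthetase genes were taken as the genes whose symbol is a synthetase name, ignoring case, and that reached at least 1 FPKM (a level scaled for transcript length and library depth) in at least 3 libraries. The rule found 37 genes of 31966 in the table, and all 37 genes that matched by name passed the level requirement. They were 8 members of the multi-synthetase complex (dars, eprs, iars, larsa, larsb, mars, qars and rars), 11 other cytosolic genes (aars, cars, farsa, farsb, hars, nars, sars, tars, vars, WARS and yars), 2 genes whose product serves both compartments (gars and kars, of which kars also belongs to the complex in mammals) and 16 mitochondrial genes, whose symbols end in 2. The compartments are those of the human genes with the same names. Some loci overlap another gene in the table (aars, nars and fars2 with 5S_rRNA, iars2 with rab3gap2 and MARS2 with med12), and 8 further rows with synthetase-like names fell outside the rule, so levels of these genes and of larsa, larsb, lars2 and fars2 are less certain.

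The study followed RNA in whole zebrafish embryos of the AB/PS strain with reduced Rad21, a subunit of the cohesin ring that holds chromatin loops and sister chromatids, or reduced CTCF, the DNA-binding protein at which cohesin often stops. The Rad21 MO and CTCF MO groups had been given a morpholino, an antisense oligonucleotide that blocks a target RNA, and WT embryos served for comparison. Each of the 3 groups was sampled 5 times, at 2.5 and 3.3 hours post fertilization (hpf), then at 4.5 and 5.3 hpf and last at 10 hpf, with 3 libraries per group and stage, 45 libraries in all. Each library came from 100 pooled embryos that had been matched by eye for stage, and held stranded total RNA after removal of ribosomal RNA. The labels do not say whether WT embryos received a control injection, or whether the pools of a group came from separate clutches, so a p-value here reflects how much pools of a group vary, and that variation may be technical only. For Rad21 MO, 1 library titled 3.3 hpf carries an age label of 4.5 hpf and 1 titled 4.5 hpf carries an age label of 3.3 hpf. The titles were followed, and the libraries concerned could not be matched to single columns. The summed level of 5 zygotic and gastrula marker genes was 236, 185 and 199 FPKM in the Rad21 MO columns headed 3.3 hpf and 512, 648 and 571 FPKM in those headed 4.5 hpf, so no column of either stage lay at the level of the other.

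The summed FPKM of a library ranged from 676000 to 1816000, with WT means of 765600, 770100, 1164000, 1460000 and 1600000 from 2.5 to 10 hpf. The main counts of calls are therefore also given with every library rescaled to the same sum. Shares of all genes called are given as deposited only, so counts after rescaling or another change of processing have no such background. A library had at least 1 FPKM for 12788 to 15833 genes, and libraries of the same group correlated across genes with r of 0.952 to 0.98 on the log2 scale. Read totals were not given in the sources used here, so the depth behind each FPKM is unknown. The targeted genes check the labels only in part, because a morpholino need not lower the level of its target RNA. The Rad21 gene rad21a was lower in Rad21 MO embryos than in WT at 4.5 hpf (log2 change -0.51, adjusted p = 0.0194, limma) and at 5.3 hpf (-0.40, adjusted p = 0.0101), and ctcf was lower at 5.3 hpf in the CTCF MO group (-1.06, adjusted p = 0.000388) but not called at 4.5 hpf (-0.63, adjusted p = 0.196). The lower levels were not limited to the labelled knockdown. In Rad21 MO embryos ctcf was lower too, at 4.5, 5.3 and 10 hpf (-0.70, -0.59 and -0.64, adjusted p = 0.0273, 0.00148 and 0.0177), and the CTCF MO group had less rad21a at 5.3 hpf (-0.35, adjusted p = 0.0332). At 10 hpf neither gene was called lower in its own knockdown, with rad21a at a change of 0.12 and ctcf at 0.04.

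In WT embryos the cytosolic and mitochondrial genes moved apart with age. The summed level of the 21 cytosolic and shared genes was 721, 699, 798, 911 and 1955 FPKM over the 5 stages, from 2.5 to 10 hpf. The summed level of the 16 mitochondrial genes was 153, 145, 103, 75.6 and 94.5 FPKM at the same stages. The ratio of the sums was therefore 4.72, 4.82, 7.78, 12.04 and 20.7, and from 4.5 hpf on the 3 WT libraries of a stage all lay above those of the stage before. The ratio compares sets within a library, so multiplying a library by a factor does not change it. In bulk RNA, fewer cells of a type and less RNA per cell cannot be told apart, and this holds for every level given here.

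**Figure D1:**
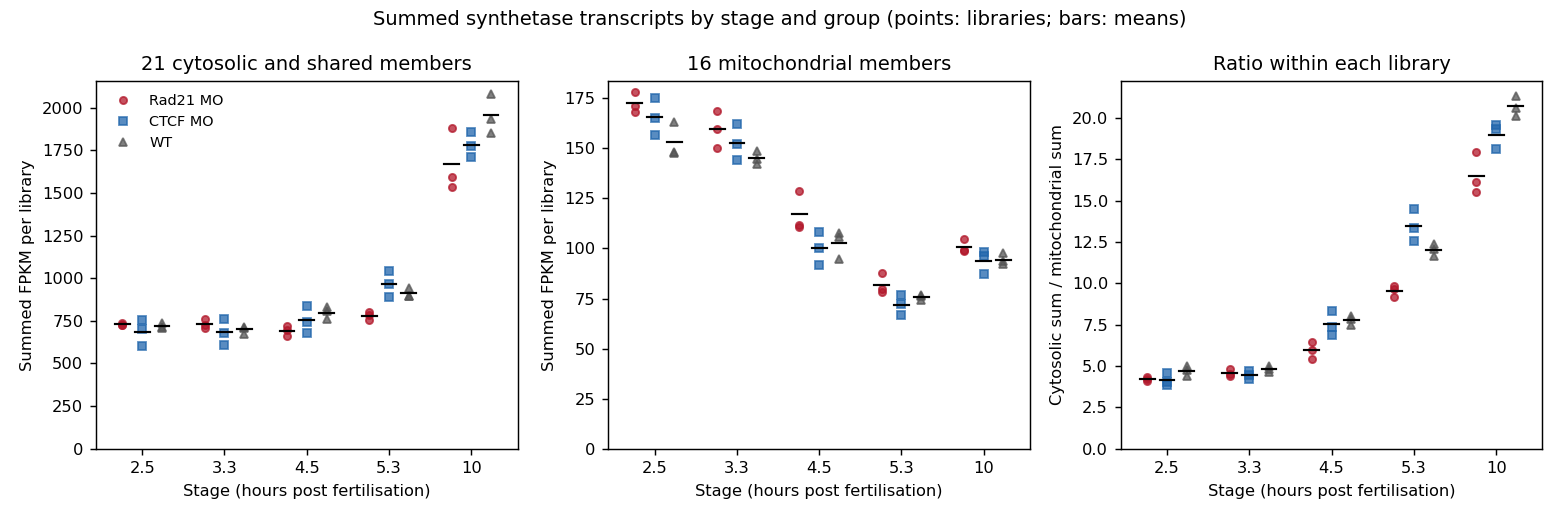
Summed FPKM of the 21 cytosolic and shared synthetase genes, summed FPKM of the 16 mitochondrial genes, and the ratio of the sums, against stage in hpf. Points are libraries and bars are means of 3. The WT ratio goes 4.72, 4.82, 7.78, 12.04 and 20.7 over the 5 stages, and the Rad21 MO ratio stands below it at 10 hpf, at 16.5.

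The ratio does not rest on the most abundant gene alone. The highest synthetase transcript by its WT mean was kars, the lysyl-tRNA synthetase gene (chromosome 7, 69483344 to 69502614, Zv9 assembly), which made up 13.8% of the cytosolic sum at 2.5 hpf and 22.7% at 10 hpf. The level of kars in the 3 WT libraries was 107, 92.9 and 97.8 FPKM at 2.5 hpf, 85.0, 80.8 and 92.4 at 3.3 hpf, 105, 107 and 110 at 4.5 hpf, 175, 157 and 137 at 5.3 hpf, and 400, 470 and 461 at 10 hpf. With kars left out, the WT ratio was 4.07, 4.22, 6.73, 9.97 and 15.99. No synthetase gene was listed at 0 in any library.

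**Figure D2:**
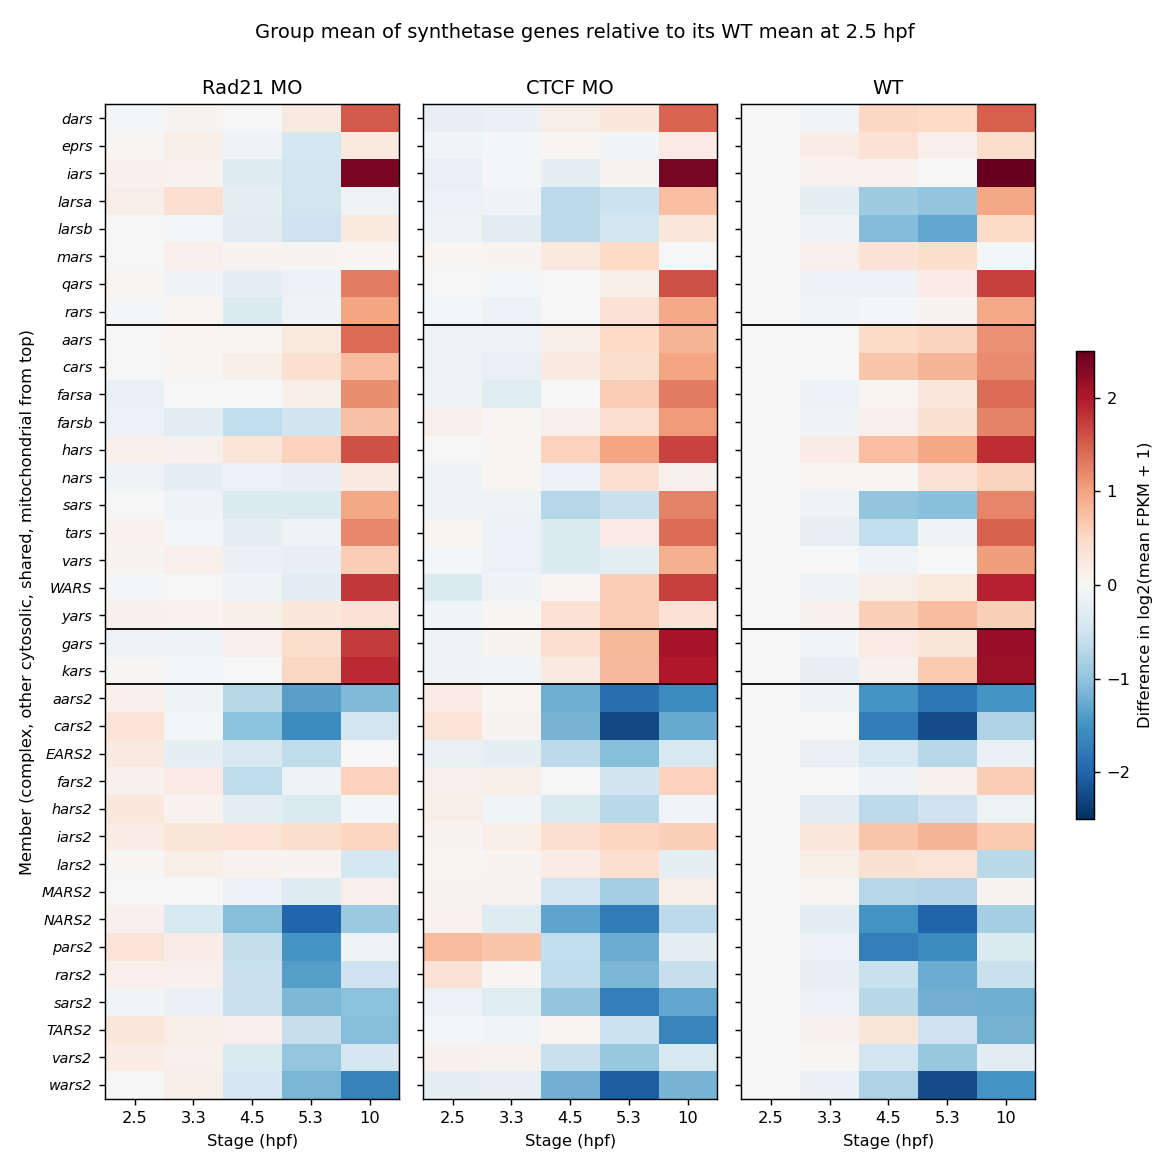
Group mean of synthetase genes by stage, as the difference in log2(mean FPKM + 1) from WT at 2.5 hpf, in Rad21 MO, CTCF MO and WT embryos. As deposited, the cytosolic genes are highest at 10 hpf in 19 of 21 cases in WT, and the mitochondrial genes are lowest at 5.3 hpf in 9 of 16. Rescaling is not applied in this plot, and shares of all genes are not given.

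As deposited, 19 of the 21 cytosolic and shared genes had their highest WT mean at 10 hpf. The exceptions were mars and yars, for methionine and tyrosine, which were highest at 5.3 hpf. After rescaling, the WT change from 2.5 to 10 hpf was negative for eprs, larsb, nars and rars (-0.59, -0.55, -0.46 and -0.092). The peak of these genes at 10 hpf thus depends on the scaling. Of the 16 mitochondrial genes, 8 were highest at 2.5 hpf and 9 were lowest at 5.3 hpf, as deposited. Shares of all genes highest or lowest at these stages are not given here. Between 2.5 and 3.3 hpf none of the 37 genes was called, with limma on log2(FPKM + 1) and p-values adjusted over all genes tested, where 2.46% of all genes were called. The smallest unadjusted p-values at that step were 0.031 for hars and 0.0627 for kars. On this scale the fold change of a low gene is understated.

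At 4.5 hpf against 3.3 hpf in WT, 8 synthetase genes rose and 9 fell, while 46.6% of all genes tested were called. By compartment, 7 cytosolic genes rose and 3 fell, and 1 mitochondrial gene rose and 6 fell. Among the mitochondrial genes, cars2, for cysteine, fell to 5.62, 2.37 and 3.31 FPKM at 4.5 hpf, against 17.2, 12.8 and 14.7 at 3.3 hpf (log2 change -1.79 ± 0.21 SE, adjusted p = 1.42e-05). The alanine gene aars2 fell to 4.04, 3.17 and 3.94 FPKM, against 11.3, 12.3 and 10.2 (-1.38 ± 0.18, adjusted p = 2.57e-05). The groups do not overlap for either gene. For pars2, the mitochondrial proline gene, the levels were 2.38, 1.27 and 1.04 FPKM at 4.5 hpf and 10.0, 6.10 and 3.42 at 3.3 hpf (-1.49 ± 0.33, adjusted p = 0.00191), which do not overlap although the earlier libraries spread widely. NARS2, for asparagine, also fell (-1.24, adjusted p = 0.000949).

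The fall was not limited to mitochondrial enzymes. The cytosolic leucine gene larsb (chromosome 21, 39677159 to 39718803) had 12.6, 11.9 and 13.3 FPKM at 4.5 hpf, against 27.5, 25.2 and 25.5 at 3.3 hpf (-0.99 ± 0.11, adjusted p = 5.84e-06). The serine gene sars (chromosome 23, 34342071 to 34355173) had 32.3, 30.9 and 36.6 FPKM, against 61.7, 57.3 and 64.1 (-0.86 ± 0.08, adjusted p = 1.79e-06). Both were clear of the earlier libraries. In the other direction cars, the cytosolic cysteine gene, had 31.8, 36.7 and 32.6 FPKM at 4.5 hpf, against 20.3, 20.7 and 20.4 at 3.3 hpf (0.69 ± 0.09, adjusted p = 2.88e-05), again without overlap. The genes called higher depend on the scaling. Rescaling moved the median change of all genes at this step from 0.03 as deposited to -0.35, and then no synthetase gene was called higher and 24 were called lower. Measured against the median of all genes, the mitochondrial median was lower under every scaling, at -0.49 as deposited, -0.64 after rescaling and -0.40 after quantile normalization. The cytosolic median relative to all genes changed sign, at 0.14, -0.05 and 0.18. Of the 17 calls, 8 held in every alternative, larsb, sars, cars2 and aars2 among them.

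At 5.3 hpf against 4.5 hpf, 4 genes rose and 3 fell, against 24.4% of all genes called. The mitochondrial tryptophan gene wars2 (chromosome 9, 22105703 to 22131758) had 2.84, 4.47 and 5.54 FPKM at 5.3 hpf, against 15.99, 13.2 and 10.96 at 4.5 hpf, without overlap (-1.46 ± 0.19, adjusted p = 0.000464). TARS2, for threonine, and vars2, for valine, also fell (-0.81 and -0.46, adjusted p = 0.00902 and 0.0219), so all 3 falling genes were mitochondrial. The 4 rising genes were cytosolic or shared, namely tars, kars, qars and farsb, with changes of 0.27 to 0.53. Only wars2 and TARS2 kept their call in every alternative. After rescaling no gene was called higher and 8 were called lower, 3 of them cytosolic or shared and 5 mitochondrial. Relative to all genes, the cytosolic median was 0.09 as deposited and -0.01 after rescaling, and the mitochondrial median was -0.35 and -0.31. Shares of all genes called higher or lower are not given for this step. Without WT library 1 at 5.3 hpf, 4 genes were called rather than 7.

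The widest change came at 10 hpf against 5.3 hpf, when 25 genes rose and 3 fell, against 68.9% of all genes called, with 37.7% higher and 31.2% lower. Of the 21 cytosolic and shared genes 17 rose and 1, mars, fell, and 12 of the 21 had at least a 2-fold higher mean as deposited. The share of all genes with a 2-fold higher mean is not given here. The isoleucine gene iars (chromosome 11, 1302659 to 1357500), a complex member, had 61.8, 66.4 and 55.0 FPKM at 10 hpf, against 9.85, 8.83 and 9.72 at 5.3 hpf (2.57 ± 0.12, adjusted p = 2.82e-10). As deposited, it had stayed between 8.09 and 10.998 FPKM in all WT libraries of the 4 earlier stages, and no earlier step was called for it. The FPKM sums of WT libraries rose over these stages, so this level course depends on the scaling. Both leucine genes rose, larsb to 37.9, 40.1 and 38.4 FPKM, against 10.2, 9.27 and 12.4 (1.78 ± 0.11, adjusted p = 5.09e-09), and larsa to 27.5, 29.4 and 28.4 FPKM, against 9.40, 5.67 and 4.64 (2.01 ± 0.39, adjusted p = 0.000384). Reads may be split between these genes and a further row with a leucine synthetase name. The larsa row also spans only 3735 bases, against 41645 for larsb. The levels of both genes are therefore uncertain. The glutamine gene qars rose as well, at 65.0 ± 6.05 FPKM against 22.2 ± 0.948 (SD, n = 3 each, limma change 1.51).

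Among the other cytosolic genes sars had 151, 165 and 157 FPKM at 10 hpf, against 30.8, 31.0 and 33.4 at 5.3 hpf (2.28 ± 0.08, adjusted p = 2.51e-11). As deposited, its course was thus a fall by 4.5 hpf followed by a rise to above its level at 2.5 hpf, where it had 69.9, 63.3 and 66.8 FPKM. After rescaling, the change of sars from 2.5 to 10 hpf was 0.18 and was not called (adjusted p = 0.165, limma). WARS, for tryptophan, had 23.4, 29.1 and 28.0 FPKM, against 5.90, 8.46 and 8.72 (1.69 ± 0.17, adjusted p = 1.05e-06), and tars, for threonine, had 113, 131 and 114 FPKM, against 39.1, 45.3 and 36.5 (1.55 ± 0.11, adjusted p = 1.72e-08). Both shared genes rose: gars, for glycine, had 130, 157 and 139 FPKM, against 32.9, 41.5 and 40.1 (1.87 ± 0.11, adjusted p = 3.81e-09), and kars rose too, to 444 ± 38.0 FPKM, against 156 ± 19.2 (SD, n = 3 each, limma adjusted p = 1.29e-08). None of these groups overlaps. Both subunits of the cytosolic phenylalanine enzyme rose, farsa to 65.5 FPKM, against 29.9, and farsb to 59.0, against 32.4 (1.11 and 0.84, adjusted p = 0.000589 and 1.32e-06).

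The mitochondrial set was mixed at this step, with 8 genes called higher and 2 lower. The fallen genes were lars2, for leucine, at 5.49 ± 0.314 FPKM against 11.9 ± 1.37 (SD, n = 3 each, limma change -0.98, adjusted p = 0.000119), and TARS2 (-0.66, adjusted p = 0.00742). The genes cars2, pars2 and NARS2, which had fallen by 4.5 hpf, rose again (1.42, 1.26 and 1.17). Relative to the median of all genes, the cytosolic median was 0.96 as deposited, 0.92 after rescaling and 1.06 after quantile normalization, and the mitochondrial median was 0.46, 0.40 and 0.29. Of the 28 calls at this step 23 held in every alternative.

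Across the whole course, 10 hpf against 2.5 hpf, 20 of the 21 cytosolic and shared genes rose and none fell, while 2 mitochondrial genes rose and 8 fell, against 77.8% of all genes called, 44.7% higher and 33.1% lower. The direction of the cytosolic calls depends on the scaling, because rescaling moved the median of all genes from 0.27 to -0.56. After rescaling 8 cytosolic genes were called higher and 5 lower, and 14 mitochondrial genes were called lower and none higher. The share of all genes called after rescaling is not given here, so these counts cannot be set against it. Relative to all genes the sets kept their order: the cytosolic median lay 0.96, 0.74 and 1.16 above the median of all genes as deposited, after rescaling and after quantile normalization, and the mitochondrial median lay at -0.68, -0.68 and -0.83. As deposited, 20 of 21 cytosolic genes were above the median of all genes and 14 of 16 mitochondrial genes were below it.

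The same separation was seen in most pairs of a cytosolic and a mitochondrial gene whose symbols differ only by the final 2, ignoring case. In 11 of 12 such pairs the cytosolic to mitochondrial ratio was higher in all 10 hpf WT libraries than in any at 2.5 hpf. The leucine, phenylalanine, glutamate and proline genes do not match by symbol in this way and were not paired, so the count does not cover them. The exception was the methionine pair, with a ratio of means of 8.84 at 10 hpf and 9.74 at 2.5 hpf. Its library ratios spread from 5.68 to 15.9 at 10 hpf, against 9.24 to 10.6 at 2.5 hpf. MARS2 had 7.74, 3.09 and 2.29 FPKM in the WT libraries at 10 hpf, so the direction of this pair is uncertain. The tryptophan pair changed order: WARS stood at 3.47 times the level of wars2 at 10 hpf, against 0.269 times at 2.5 hpf. The WARS row spans only 1406 bases, against 26056 for wars2, so the change of order is less certain than the rise of the ratio. Individual pairs followed different routes. The isoleucine ratio was 2.22, 1.90, 1.35, 1.13 and 8.45 over the 5 stages, and the cysteine ratio was 1.39, 1.37, 8.95, 15.7 and 5.88.

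The knockdowns were compared with WT at each stage, to ask when loss of Rad21 or CTCF alters the embryo's transcripts. At the earliest stages no synthetase gene was called. In Rad21 MO embryos 0 of 37 genes were called at 2.5 hpf and 0 at 3.3 hpf, where 0% and 0.171% of all genes were called. In CTCF MO embryos 0 of 37 were called at both stages, where 0% and 0.0569% of all genes were called. The smallest unadjusted p-values for Rad21 MO were 0.0556 at 2.5 hpf and 0.0205 at 3.3 hpf, both for hars2, the mitochondrial histidine gene. For CTCF MO the smallest was 0.00884 at 2.5 hpf, for pars2.

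At 4.5 hpf, 4 synthetase genes were higher and 4 lower in Rad21 MO embryos than in WT, against 20.6% of all genes called, 10.6% higher and 10.1% lower. All 4 higher genes were also called lower in WT at 4.5 than at 3.3 hpf. Both comparisons use the WT libraries at 4.5 hpf, so this match is partly built in. The share of all genes that match in this way is not given here. The leucine gene larsb had 23.7, 25.3 and 19.4 FPKM in Rad21 MO embryos, against 12.6, 11.9 and 13.3 in WT (0.80 ± 0.14, adjusted p = 0.00724), and sars had 57.4, 53.4 and 45.5 FPKM, against 32.3, 30.9 and 36.6 (0.63 ± 0.13, adjusted p = 0.0126). Neither gene overlaps between the groups, and pars2 (1.09, adjusted p = 0.0447) and aars2 (0.78, adjusted p = 0.0321) were the other higher genes. The lower gene with the largest change was farsb (chromosome 15, 40792142 to 40811082), the beta subunit of the phenylalanine enzyme, with 17.0, 14.4 and 15.5 FPKM in Rad21 MO embryos, against 25.3, 27.1 and 28.0 in WT (-0.74 ± 0.12, adjusted p = 0.00512). Its partner farsa had 26.2, 18.1 and 28.0 FPKM in Rad21 MO embryos, against 25.4, 18.4 and 30.8 in WT, which overlap, and it was not called at any stage. The genes cars, eprs and hars were also lower (-0.55, -0.46 and -0.42, adjusted p = 0.0282, 0.0477 and 0.0236).

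Of these 8 calls larsb alone held in every alternative. Rescaling ended all 4 lower calls, with farsb at an adjusted p of 0.143, and left 5 genes higher and none lower, while the median of all genes stood at 0.19. Leaving out single libraries left 2 to 7 calls, the fewest without Rad21 MO library 0, where sars reached an adjusted p of 0.0516, and 3 without WT library 1 or Rad21 MO library 2, 4 without WT library 2 and 5 without WT library 0. Relative to all genes, the cytosolic median was -0.19 as deposited, -0.17 after rescaling and -0.15 after quantile normalization, and the mitochondrial median was 0.24, 0.22 and 0.17. In 11 genes all Rad21 MO libraries lay below all WT libraries and in 6 they lay above, shares to be read against 21.5% and 19.1% of all genes.

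**Figure D3:**
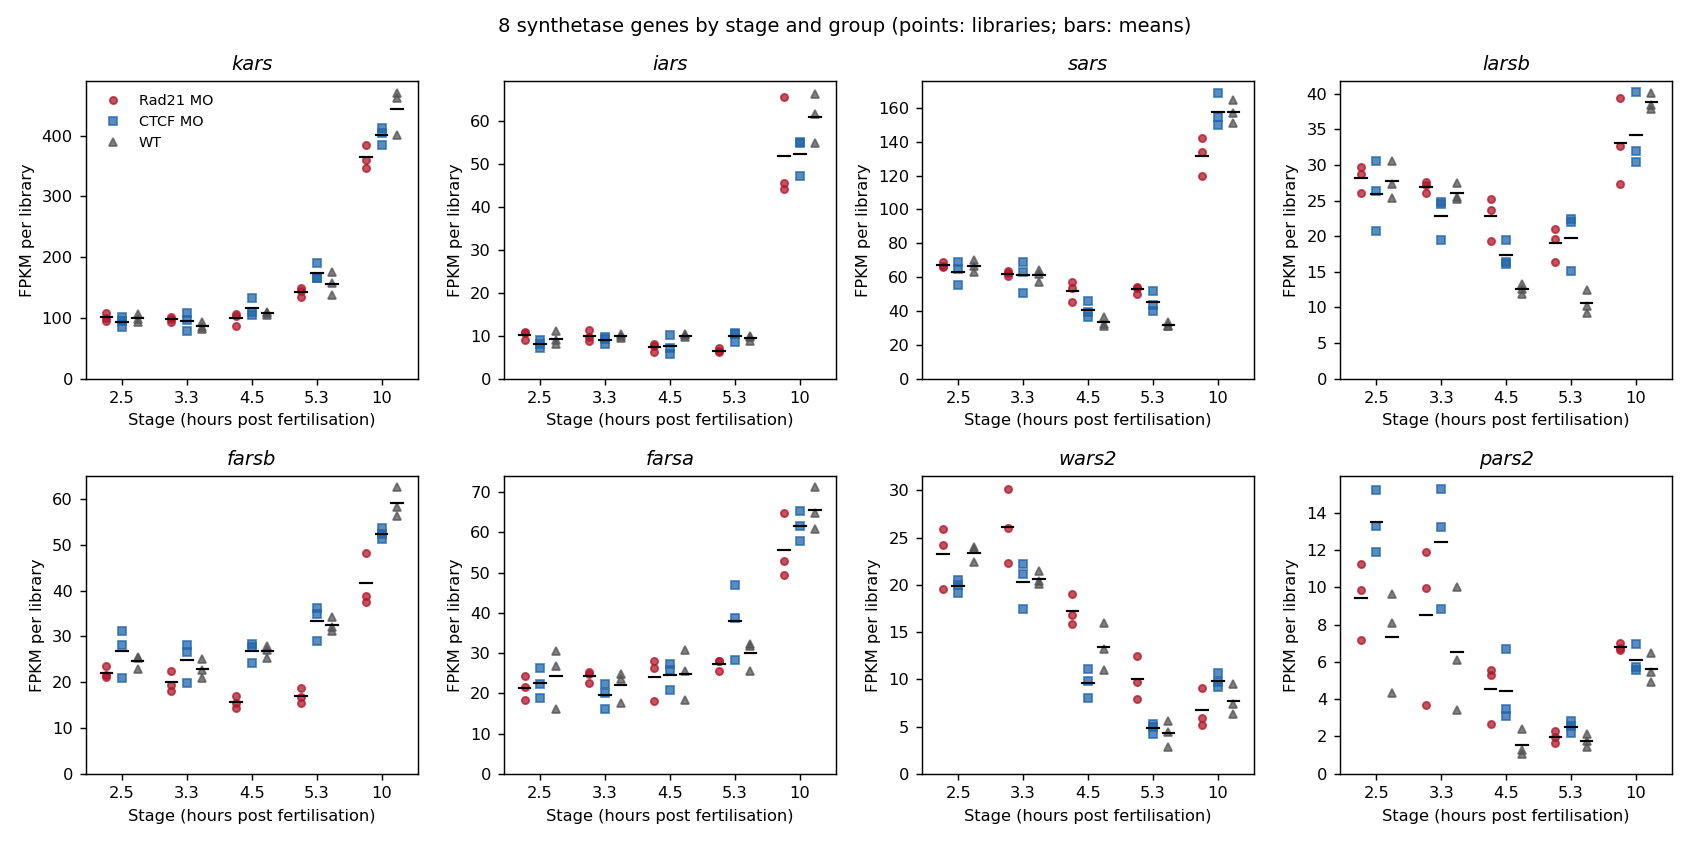
FPKM of kars, iars, sars, larsb, farsb, farsa, wars2 and pars2 in every library, against stage in hpf, for Rad21 MO, CTCF MO and WT embryos. In Rad21 MO embryos sars and larsb stand above WT at 4.5 and 5.3 hpf and farsb stands below it, at 17.0 FPKM against 32.4 FPKM on average at 5.3 hpf.

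At 5.3 hpf, 36 of the 37 genes were tested, since rars2 missed the level requirement, and 4 were higher and 9 lower in Rad21 MO embryos than in WT, against 22.1% of all genes called, 12.2% higher and 9.9% lower. The mitochondrial tryptophan gene wars2 had 9.69, 7.88 and 12.5 FPKM in Rad21 MO embryos, against 2.84, 4.47 and 5.54 in WT (1.07 ± 0.23, adjusted p = 0.0114). The serine gene sars had 53.6, 50.1 and 54.3 FPKM, against 30.8, 31.0 and 33.4 (0.71 ± 0.11, adjusted p = 0.00281), and farsb had 16.8, 15.5 and 18.7 FPKM, against 34.1, 31.1 and 32.0 (-0.90 ± 0.12, adjusted p = 0.00155). None of these overlaps between the groups, and these 3 calls held in every alternative. The gene larsb was again higher, at 19.6, 16.4 and 21.02 FPKM against 10.2, 9.27 and 12.4 (0.78 ± 0.18, adjusted p = 0.0141), a call that ended without Rad21 MO library 2 (adjusted p = 0.0536), and cars2 was higher by 0.60 (adjusted p = 0.0454).

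The other lower genes at 5.3 hpf were all cytosolic. They included nars, for asparagine, with 10.9, 13.8 and 12.8 FPKM in Rad21 MO embryos against 18.6, 18.4 and 19.4 in WT (-0.56 ± 0.11, adjusted p = 0.00924), eprs, for glutamate and proline (-0.57, adjusted p = 0.0419), yars (-0.50, adjusted p = 0.0113), iars (-0.47, adjusted p = 0.0385) and cars (-0.45, adjusted p = 0.0164), none overlapping. The genes hars, mars and qars were lower too (-0.37, -0.37 and -0.35). In 13 genes all Rad21 MO libraries lay below all WT libraries and in 5 they lay above, against 20.3% and 20.8% of all genes. After rescaling, when the median of all genes stood at 0.25, only farsb stayed called lower, and 6 genes were called higher. Leaving out single libraries left 5 to 8 calls, the fewest without Rad21 MO library 2. Relative to all genes the cytosolic median was -0.30, -0.23 and -0.15 under the 3 scalings, and the mitochondrial median 0.09, 0.05 and 0.02. The ratio of cytosolic to mitochondrial sums was lower in Rad21 MO embryos at both stages, 5.94 against 7.78 in WT at 4.5 hpf and 9.55 against 12.04 at 5.3 hpf, with no overlap of libraries. It was also lower without overlap at 2.5 hpf, at 4.23 against 4.72, when no gene was called, and overlapped at 3.3 hpf, at 4.58 against 4.82.

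As deposited, the direction of a gene in Rad21 MO embryos at 4.5 and 5.3 hpf went with its own course in WT. The counts below are all as deposited and are not given after rescaling. Both the WT course and the position against WT depend on the scaling. For the 21 cytosolic and shared genes, the median Rad21 MO change at 4.5 hpf was -0.26 as deposited and 0.015 after rescaling. At 4.5 hpf, the genes were split by WT libraries that this comparison does not use, those at 5.3 and 3.3 hpf. Of 14 synthetase genes whose WT libraries at 5.3 hpf all lay below those at 3.3 hpf, 12 were above WT in Rad21 MO embryos, and of 13 whose WT libraries lay above, none was. Over all genes tested the same shares were 84.3% and 10.6%. At 5.3 hpf, split by WT at 4.5 and 3.3 hpf, 10 of 12 falling and 1 of 11 rising synthetase genes were above WT, where the shares over all genes were 88.7% and 17.3%. The synthetase genes were near the background of all genes in this. In CTCF MO embryos at 5.3 hpf 7 of 12 falling and 5 of 11 rising genes were above WT, against 79.6% and 27.6% of all genes. At 4.5 hpf they were 8 of 14 and 4 of 13, against 69.9% and 32.9%. At 10 hpf, split by WT at 5.3 and 3.3 hpf, the shares over all genes lay closer together. In Rad21 MO embryos 8 of 14 falling and 3 of 13 rising genes were above WT, against 58.8% and 44.5%. For CTCF MO they were 4 of 14 and 1 of 13, against 52.1% and 48%.

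Marker transcripts of both kinds, those supplied by the egg and those made by the embryo, differed at these stages. The summed level of btg4, buc, dazl and zar1 at 4.5 hpf was 675, 486 and 478 FPKM in Rad21 MO embryos, 367, 226 and 305 FPKM in CTCF MO embryos and 171, 139 and 169 FPKM in WT. At 5.3 hpf it was 345, 424 and 332 FPKM in Rad21 MO embryos, 308, 226 and 212 in CTCF MO embryos and 80.1, 95.7 and 99.2 in WT. The sums of both knockdowns lay above WT in every library at both stages. The sum of the 5 zygotic and gastrula markers ran the other way in Rad21 MO embryos, at 512 to 648 FPKM against 802 to 1045 in WT at 4.5 hpf and 824 to 975 against 989 to 1232 at 5.3 hpf. The sum of 11 p53 target genes was also below WT in every Rad21 MO library, at 612 to 620 FPKM against 867 to 937 at 4.5 hpf and 820 to 876 against 1062 to 1248 at 5.3 hpf. All these marker sums are as deposited. The FPKM sums of Rad21 MO libraries were also below WT, at 837100 to 1102000 against 1112000 to 1208000 at 4.5 hpf. At 5.3 hpf they were 1037000 to 1265000 against 1387000 to 1540000. The gap to WT in the zygotic and p53 sums thus depends on the scaling, and rescaled sums are not given. For CTCF MO the zygotic and gastrula sum overlapped WT, at 675 to 856 FPKM at 4.5 hpf and 967 to 1030 at 5.3 hpf. The p53 target sum overlapped too, at 770 to 995 FPKM at 4.5 hpf and 895 to 1319 at 5.3 hpf. None of these p53 targets or zygotic markers was listed at 0 in those libraries. At 3.3 hpf the zygotic and gastrula sum lay above WT in every Rad21 MO library instead, at 185 to 236 FPKM against 111 to 148. The egg-supplied sum was above WT at 3.3 hpf too, at 860 to 962 FPKM in Rad21 MO embryos against 654 to 748. The part of these 3 marker sets in the synthetase results was not tested.

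In CTCF MO embryos fewer synthetase genes were called. At 5.3 hpf larsb and sars were higher and cars was lower than in WT, 3 of 36 genes against 8.95% of all genes called, 5.07% higher and 3.87% lower. The level of larsb was 22.4, 21.9 and 15.1 FPKM in CTCF MO embryos, against 10.2, 9.27 and 12.4 in WT (0.83 ± 0.18, adjusted p = 0.0241), and that of sars was 43.3, 52.0 and 40.0 FPKM, against 30.8, 31.0 and 33.4 (0.49 ± 0.11, adjusted p = 0.0278). For cars it was 31.0, 28.1 and 25.9 FPKM, against 35.0, 40.3 and 38.2 (-0.40 ± 0.11, adjusted p = 0.0448). The groups do not overlap for any of the 3 genes, yet no call was left without WT library 0, WT library 1, CTCF MO library 0 or CTCF MO library 1. For cars the call also ended with no filter (adjusted p = 0.0595), after rescaling (0.551) and after quantile normalization (0.0771), and after rescaling 5 genes were called higher and none lower. The authors' deposited table for CTCF MO at 5.3 hpf lists larsb, sars and gars, all higher, and does not list cars. Rad21 MO and CTCF MO share the WT libraries, so their values for larsb and sars are not independent. Unlike in Rad21 MO embryos, the ratio of sums at 5.3 hpf was above WT in CTCF MO embryos, at 13.5 against 12.04, without overlap.

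At 4.5 hpf no synthetase gene was called in CTCF MO embryos, where 0.00671% of all genes were. The mitochondrial proline gene pars2 had 6.71, 3.10 and 3.46 FPKM in CTCF MO embryos, against 2.38, 1.27 and 1.04 in WT, with a limma change of 1.06, an unadjusted p of 0.0102 and an adjusted p of 0.215. At 2.5 hpf it had 11.9, 15.2 and 13.3 FPKM, against 8.06, 9.62 and 4.34 in WT (0.85, unadjusted p = 0.00884, adjusted p = 0.568). The groups do not overlap at either stage, as in 6.13% of all genes at 2.5 hpf and 10.2% at 4.5 hpf that lay higher, and neither comparison passed the adjustment over all genes. The authors' deposited table for CTCF MO at 2.5 hpf holds 164 rows, with pars2 as the single synthetase gene. It has a log2 fold change of 0.90 there, with q = 0.00905. Their deposited table at 4.5 hpf, of 902 rows, lists pars2 alone too, at 1.49.

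Set directly against each other, Rad21 MO and CTCF MO embryos differed most clearly in farsb. At 5.3 hpf farsb had 16.8, 15.5 and 18.7 FPKM in Rad21 MO embryos, against 34.8, 36.2 and 28.9 in CTCF MO embryos (-0.93 ± 0.12, adjusted p = 0.0082), a call that held in every alternative, where 4.5% of all genes were called. WARS, nars, rars and hars were also lower in Rad21 MO embryos at 5.3 hpf (-0.88, -0.62, -0.47 and -0.41, adjusted p = 0.0398, 0.0253, 0.0437 and 0.0432), but each of these 4 calls ended when any single library was left out and after rescaling (adjusted p = 0.0863, 0.0829, 0.146 and 0.163). At 4.5 hpf, where 2.76% of all genes were called, farsb was lower (-0.73, adjusted p = 0.0263) and wars2 higher (0.78, adjusted p = 0.0489) in Rad21 MO than in CTCF MO embryos, and single libraries left 0 or 1 call. Neither call held after rescaling, with farsb at an adjusted p of 0.166 and wars2 at 0.0597. At 2.5 and 3.3 hpf no synthetase gene was called between the knockdowns, against 0% and 0.0427% of all genes.

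**Figure D4:**
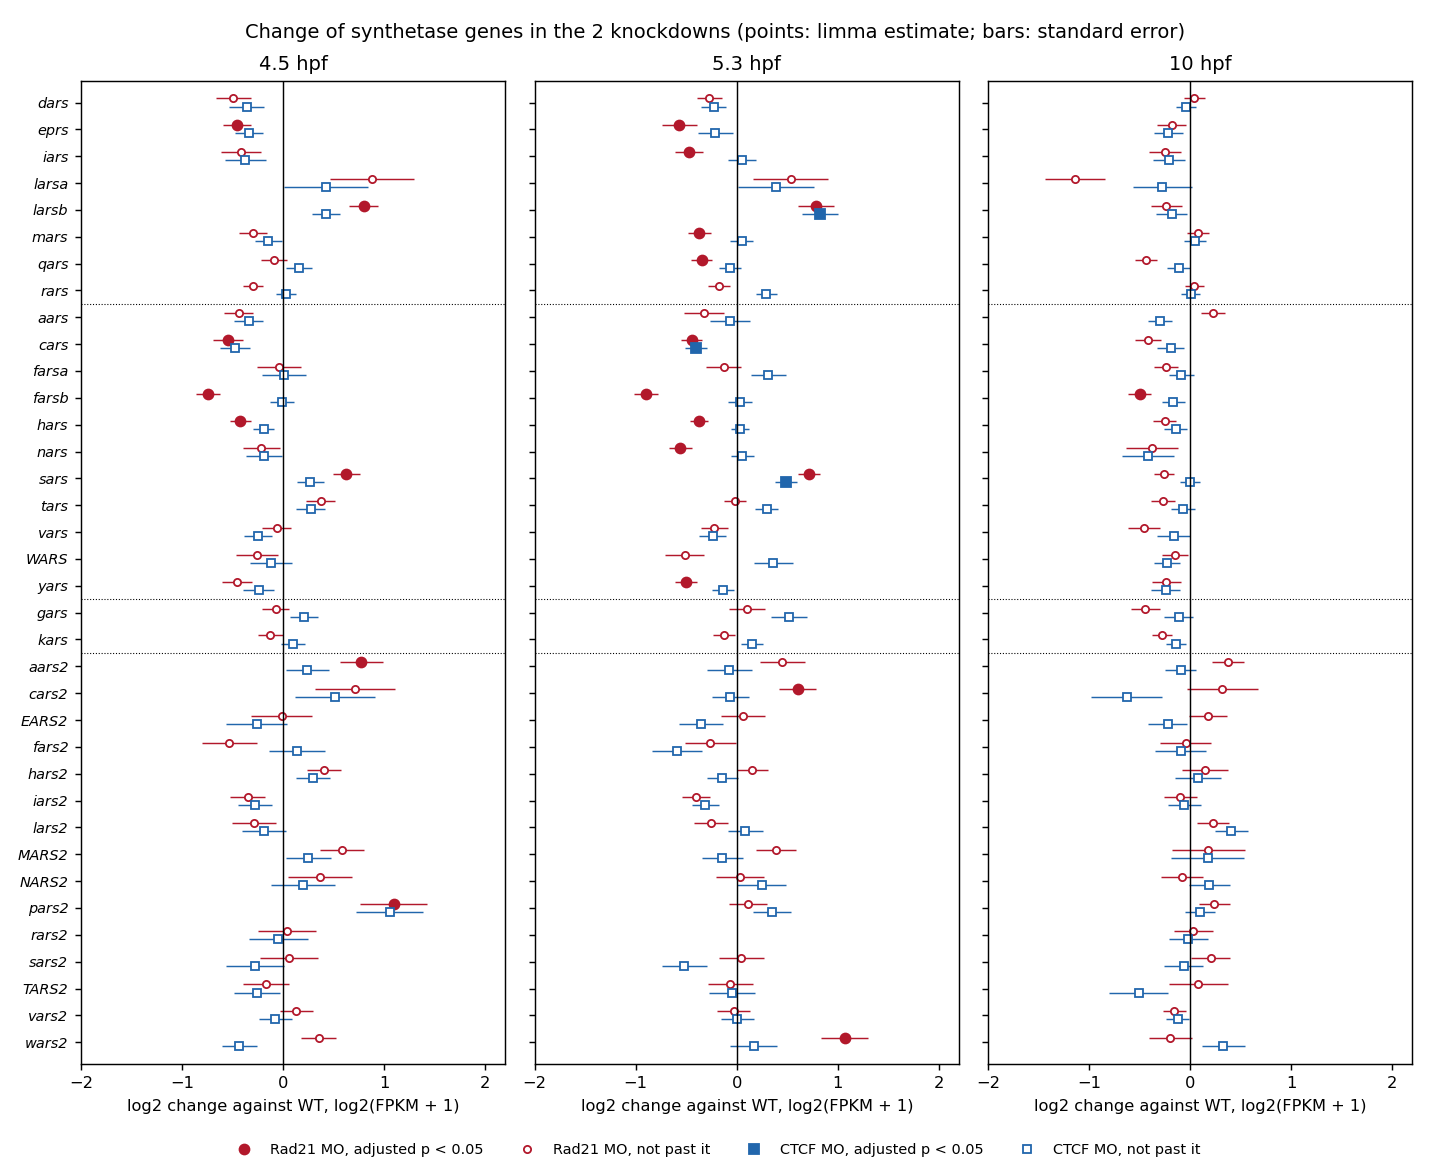
Change of tested synthetase genes against WT, in log2(FPKM + 1) with its standard error, at 4.5, 5.3 and 10 hpf in Rad21 MO and CTCF MO embryos, with filled points for an adjusted p under 0.05. In Rad21 MO embryos 4 genes are called higher and 4 lower at 4.5 hpf, and 4 higher and 9 lower at 5.3 hpf. At 10 hpf 1 gene, farsb, is called. Of all genes, 20.6%, 22.1% and 3.23% are called at these stages.

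At 10 hpf the single call was farsb, with 48.3, 38.9 and 37.6 FPKM in Rad21 MO embryos, against 56.2, 62.5 and 58.3 in WT (-0.50 ± 0.11, adjusted p = 0.0469), where 3.23% of all genes were called, 2.44% lower. The groups do not overlap, and the call ended in 5 of the 6 refits that left out a library and after rescaling (adjusted p = 0.207). Without Rad21 MO library 0, 2 genes were called. That library had a cytosolic sum of 1880 FPKM, against 1591 and 1535 in the other Rad21 MO libraries and 1850, 2081 and 1935 in WT. The leucine gene larsa had 19.2, 8.07 and 11.9 FPKM in Rad21 MO embryos, against 27.5, 29.4 and 28.4 in WT, with no overlap, as in 14% of all genes that lay lower, a change of -1.14 and an adjusted p of 0.0738. The authors' deposited table for Rad21 MO at 4.5 hpf lists 9 synthetase genes among 3668 rows, 6 higher and 3 lower. At 5.3 hpf theirs lists 9 among 3525, 3 higher and 6 lower. Those lists lack eprs and hars at 4.5 hpf, and hars, mars, qars and cars2 at 5.3 hpf, which were called here. In turn, the list at 4.5 hpf holds cars2, tars and dars, which were not called here. Their table at 10 hpf lists 5 among 1496 rows, all lower, and gives larsa a log2 fold change of -1.16. Besides farsb and larsa it lists vars, gars and qars, and of the 5 only farsb was called here. As a set, 17 of 21 cytosolic genes lay below the median of all genes in Rad21 MO embryos under each of the 3 scalings, with a median of -0.27, -0.27 and -0.16 relative to it. Against the same WT libraries, CTCF MO embryos had 19, 18 and 18 of the 21 below, with a median of -0.17, -0.16 and -0.16.

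In CTCF MO embryos at 10 hpf no synthetase gene was called, where 0.0182% of all genes were, and the smallest unadjusted p-values were 0.0289 for aars and 0.0329 for lars2. Between the knockdowns, aars, for alanine, was higher in Rad21 MO than in CTCF MO embryos at 10 hpf, at 143 ± 23.4 FPKM against 98.3 ± 2.53 (SD, n = 3 each, limma change 0.53, adjusted p = 0.0456), against 3.38% of all genes called, and the call ended when any library was left out and after rescaling (adjusted p = 0.219). The cytosolic to mitochondrial ratio at 10 hpf was 16.5 in Rad21 MO, 19.0 in CTCF MO and 20.7 in WT embryos, and the libraries of each knockdown lay below those of WT. The summed level of 11 p53 target genes varied between libraries at this stage, at 3801, 4743 and 4063 FPKM in Rad21 MO, 2258, 638 and 2780 in CTCF MO and 2954, 776 and 659 in WT embryos, and its part in the synthetase levels was not tested.

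For larsb, sars and wars2 the change in Rad21 MO embryos against WT was smaller at 10 hpf than at 5.3 hpf, by a test of the difference between stages. That difference was -1.27 ± 0.25 (adjusted p = 0.000625) for wars2, -1.02 ± 0.21 (adjusted p = 0.000682) for larsb and -0.97 ± 0.15 (adjusted p = 1.57e-05) for sars, where 14.1% of all genes were called. These 3 held in every alternative, while larsa (-1.68, adjusted p = 0.0314) ended in 8 of 12 refits that left out a library. The larsa change did not shrink, and it was called against WT at neither stage. At 5.3 hpf larsa had 12.5, 6.67 and 10.5 FPKM in Rad21 MO embryos, against 9.40, 5.67 and 4.64 in WT. At 10 hpf it lay below WT. In CTCF MO embryos the larsb change was also smaller at 10 than at 5.3 hpf, with a difference of -1.01 ± 0.21 (adjusted p = 0.0026). The sars change was smaller too, at -0.49 (adjusted p = 0.0491). Of all genes, 4.42% were called. The sars call ended in 8 of 12 refits that left out a library, and with a pseudocount of 0.1, no filter, rescaling or quantile normalization (adjusted p of 0.0502 to 0.0711). The differences for larsb and sars in Rad21 MO and CTCF MO embryos rest on the same WT libraries, so they are not independent. Between 4.5 and 5.3 hpf no synthetase gene differed in its change, against 0.0792% of all genes for Rad21 MO and 0.0106% for CTCF MO.

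Other genes of the translation machinery gave a context for the WT rise. At 10 hpf against 5.3 hpf, 15 of 20 tested translation elongation genes rose and 1 fell, with a median change of 0.98, and 2 of 3 scaffold genes of the multi-synthetase complex rose, with a median of 1.10, where 37.7% of all genes rose and 31.2% fell. The 49 tested tRNA processing and modification genes were split, with 18 higher and 15 lower and a median of 0.10, against a median of 0.07 over all genes. At 4.5 hpf against 3.3 hpf, 9 of these 49 genes rose and 22 fell, where 25.3% of all genes rose and 21.4% fell. In Rad21 MO embryos at 5.3 hpf 3 of the 49 were higher and 8 lower than in WT, where 12.2% of all genes were higher and 9.9% lower. Of 19 tested amino acid response genes, 5 were higher and 2 lower in Rad21 MO embryos at 5.3 hpf, read against the same shares of all genes. For CTCF MO embryos 6 were higher and none lower, where 5.07% of all genes were higher and 3.87% lower.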

How the data were processed

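Strand-specific total RNA was sequenced from pools of whole zebrafish embryos. Per the submitters' processing notes, the authors used TopHat2 2.0.9, Cufflinks 2.2.0 and Cuffdiff (version not given in the sources used here), and per the file headers they deposited FPKM per gene and library on Zv9 (danRer7). Whether coordinates count from 0 or 1 is not stated. Per the file headers, the authors' deposited Cuffdiff tables hold FPKM, log2 fold changes, test scores, p-values and q-values. They were used only to list synthetase genes.

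The limma package 3.58.1 (R 4.3.3) was fitted to log2(FPKM + 1) in the 9 libraries of a stage, the 15 WT libraries, or all 45 for changes between stages. Genes had at least 1 FPKM in at least 3 libraries, and Benjamini-Hochberg adjusted p under 0.05 over all genes was called. Scripts were tested on simulated data. Every synthetase gene could be named; values by library were given for the highest gene and for up to 8 called, non-overlapping genes with the largest changes and a mean of at least 5 FPKM, plus genes called between knockdowns or stages, and a few others (farsa, pars2, larsa, NARS2 among them) chosen after their values were seen. The synthetase genes, gene lists and tests were chosen with earlier results of these data known. Alternatives were a pseudocount of 0.1, no filter, rescaling to equal sums, quantile normalization, all 45 libraries and leaving out each library. The values of 1 gene are not reported here and are left out of the plots. Sequences and coordinates from other assemblies were not used here.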

Additional observations from a re-analysis of the deposited data

Results flagged for a closer look

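The change against WT differed between stages or between knockdowns, by a test of the difference itself with limma, for the following genes. The Rad21 MO change at 10 hpf minus that at 5.3 hpf was -1.68 for larsa, -1.02 for larsb, -0.97 for sars and -1.27 for wars2 on the log2(FPKM + 1) scale. The CTCF MO change at 10 hpf minus that at 5.3 hpf was -1.01 for larsb and -0.49 for sars. Rad21 MO minus CTCF MO at 4.5 hpf was -0.73 for farsb and 0.78 for wars2. At 5.3 hpf it was -0.93 for farsb, -0.88 for WARS, -0.62 for nars, -0.47 for rars and -0.41 for hars. At 10 hpf it was 0.53 for aars. The calls that held in every alternative were larsb, sars and wars2 for Rad21 MO between stages and larsb for CTCF MO between stages. Between knockdowns only farsb at 5.3 hpf held, and the other calls listed here did not hold in all alternatives.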

How the results depend on the processing

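No paired analysis was possible because the columns carry numbers that are not tied to the letters in the sample titles, so the replicate block was not run. Called synthetase genes in Rad21 MO against WT at 4.5 hpf numbered 8, but 5 with no filter, 5 rescaled, 4 after quantile normalization and 15 with all 45 libraries. At 5.3 hpf they numbered 13, but 8 with no filter and 7 rescaled. At 10 hpf 1 was called, but 0 with no filter, 0 rescaled, 0 after quantile normalization and 6 with all 45 libraries. CTCF MO against WT gave 2 calls rather than 0 at 4.5 hpf with all 45 libraries and 5, all higher, rather than 3 at 5.3 hpf when rescaled. Rad21 MO against CTCF MO gave 2 at 4.5 hpf, but 1 with a pseudocount of 0.1, 1 with no filter, 0 rescaled, 1 after quantile normalization and 6 with all 45 libraries. At 5.3 hpf it gave 5, but 2 with no filter, 2 rescaled and 11 with all 45 libraries, and at 10 hpf 1, but 0 with no filter, 0 rescaled and 2 with all 45 libraries. The CTCF MO difference between 10 and 5.3 hpf gave 2, but 1 with a pseudocount of 0.1, with no filter, rescaled or after quantile normalization. Leaving out 1 library gave 2 to 7 calls (Rad21 MO, 4.5 hpf), 5 to 8 (5.3 hpf), 0 to 2 (10 hpf), 0 to 2 (CTCF MO, 5.3 hpf), 0 to 1 (Rad21 MO against CTCF MO, 4.5 and 10 hpf), 1 at 5.3 hpf, 4 to 8 (WT, 5.3 against 4.5 hpf), 14 to 17 (4.5 against 3.3 hpf), 26 to 28 (10 against 5.3 hpf), 27 to 30 (10 against 2.5 hpf), 3 to 6 (Rad21 MO between stages) and 1 to 3 (CTCF MO between stages). The cause was not tested, and shares of all genes called under these settings are not given here.

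Signs reversed after rescaling at WT 4.5 against 3.3 hpf for dars (-0.013), mars (-0.33), aars (-0.10), hars (-0.014), yars (-0.11), kars (-0.27, and -0.083 after quantile normalization) and iars2 (-0.082), at 5.3 against 4.5 hpf for farsb (-0.049), and at 10 against 2.5 hpf for eprs (-0.59), larsb (-0.55), rars (-0.092), nars (-0.46), yars (-0.45), fars2 (-0.15, and -0.15 after quantile normalization) and iars2 (-0.23). FPKM gives no read count per gene, so the counting error of the low mitochondrial genes is unknown.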
